A study of Mus musculus with 17 samples.

Results

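The collagen family and a set of matrix proteoglycans and glycoproteins were followed through RNA-seq libraries of innate lymphoid cells (ILCs), lymphocytes without rearranged antigen receptors, sorted from mouse skin. Members were every gene with a collagen chain symbol (Col, a number, a and a number) together with Dcn, Lum, Bgn, Fmod, Fbn1, Fn1, Sparc and Postn. This gave 52 genes of the 54446 in the bulk count tables, of which 44 were collagen chains and 8 were not. Per the labels, C57BL/6 skin cells were sorted by CD90, after dead cells and cells with lineage markers or the γδ T cell receptor were gated out. CD90 is carried by lymphocytes and, as background, by dermal fibroblasts too. A fate-map (fm) reporter, which stays on in a cell once its driver has been active, divided the sorted cells. Reporter-positive (fm_pos, n = 2) and reporter-negative cells (fm_neg, n = 2) came from mice with intact Gata3. The same fractions were sorted from fate-map mice in which Gata3 was floxed (fm_pos_Gata3flox, n = 3, and fm_neg_Gata3flox, n = 3). A further set came from Gata3fl/fl CreERT2 mice (Gata3KO_tamoxifen, n = 2) and wild-type mice (WT_tamoxifen, n = 2). Mice of both genotypes in that set received 3 intraperitoneal injections of 5 mg tamoxifen, so the drug was common to them. Single-cell libraries, 1 of each, held skin ILCs from ear and dorsal skin, and dorsal skin ILCs at day 0 and day 10 after depilation. The labels did not say whether libraries of a group came from separate mice, so p-values measure the spread between libraries, which may be technical.

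Collagen chains wind around one another into helices that are secreted, trimmed and assembled outside the cell. Fibrillar types (I, III, V) form the rope-like fibrils of the dermis, type IV forms the sheet under the epidermis, type VI forms beaded filaments, and other types decorate fibrils or span the cell membrane. Small leucine-rich proteoglycans such as decorin bind to fibrils and set their width and spacing. In skin most of these genes are expressed mainly by dermal fibroblasts, while a few, such as Col17a1, belong to basal keratinocytes. Lymphocytes are not regarded as a main source of fibrillar matrix.

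Total counts ran from 14450612 to 44098274 per bulk library. Gata3, the transcription factor that was floxed, was at 154, 235 and 307 CPM (the counts-per-million unit, scaled with TMM factors) in fm_pos_Gata3flox and 164 and 302 CPM in fm_pos, a log2 fold change of -0.01 ± 0.35 (SE, edgeR adjusted p = 1). In fm_neg_Gata3flox it was at 264, 430 and 442 CPM, against 380 and 503 CPM in fm_neg (log2 fold change -0.22 ± 0.35, adjusted p = 0.783). In Gata3KO_tamoxifen it was at 298 and 314 CPM, against 380 and 580 CPM in WT_tamoxifen (log2 fold change -0.65 ± 0.26, adjusted p = 0.742). Gene-level counts include exons outside any deleted stretch, so these values do not check the deletion. Summed CPM of the 6 ILC defining markers lay between 5593 and 12810 in the 14 libraries, so lymphoid transcripts were abundant in all of them.

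The promoter windows below are shown for 4 genes that differed between the reporter fractions whichever library was left out and had a window near the start in the count tables, and for the neighbouring pair Col4a1 and Col4a2. Each window spans 300 bases, 250 before and 50 after the annotated start, from RefSeq on GRCm38.p6, written 5′ to 3′ on the gene's strand. Capitals mark CCAAT or its reverse complement ATTGG, and TATAAA or its reverse complement TTTATA, searched on both strands. The windows lie at chr1:45311288-45311587 (+) for Col3a1, chr1:134037004-134037303 (+) for Fmod, chrX:73483351-73483650 (+) for Bgn, chr19:47691993-47692292 (-) for Col17a1, chr8:11312777-11313076 (-) for Col4a1 and chr8:11312555-11312854 (+) for Col4a2.
Col3a1: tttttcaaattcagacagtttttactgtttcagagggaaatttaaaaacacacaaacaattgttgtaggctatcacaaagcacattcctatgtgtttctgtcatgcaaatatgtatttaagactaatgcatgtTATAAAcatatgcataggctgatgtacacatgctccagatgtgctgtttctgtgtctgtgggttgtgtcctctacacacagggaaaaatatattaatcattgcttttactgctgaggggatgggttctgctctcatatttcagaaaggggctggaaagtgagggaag
Fmod: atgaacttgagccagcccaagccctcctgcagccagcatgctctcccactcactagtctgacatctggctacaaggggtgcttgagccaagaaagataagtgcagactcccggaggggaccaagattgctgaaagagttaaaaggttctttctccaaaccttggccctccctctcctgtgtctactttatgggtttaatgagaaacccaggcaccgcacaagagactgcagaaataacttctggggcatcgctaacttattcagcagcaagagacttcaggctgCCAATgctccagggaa
Bgn: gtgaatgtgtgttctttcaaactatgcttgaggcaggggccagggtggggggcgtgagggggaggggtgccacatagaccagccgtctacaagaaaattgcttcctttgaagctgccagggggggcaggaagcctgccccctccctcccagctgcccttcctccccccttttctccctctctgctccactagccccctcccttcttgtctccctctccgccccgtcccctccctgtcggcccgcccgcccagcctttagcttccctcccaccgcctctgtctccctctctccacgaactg
Col17a1: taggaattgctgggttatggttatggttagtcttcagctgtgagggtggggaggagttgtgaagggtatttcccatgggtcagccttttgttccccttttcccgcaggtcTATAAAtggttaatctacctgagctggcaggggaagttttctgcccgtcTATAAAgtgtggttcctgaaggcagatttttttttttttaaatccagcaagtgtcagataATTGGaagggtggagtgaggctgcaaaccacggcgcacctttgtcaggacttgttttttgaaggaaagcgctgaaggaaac
Col4a1: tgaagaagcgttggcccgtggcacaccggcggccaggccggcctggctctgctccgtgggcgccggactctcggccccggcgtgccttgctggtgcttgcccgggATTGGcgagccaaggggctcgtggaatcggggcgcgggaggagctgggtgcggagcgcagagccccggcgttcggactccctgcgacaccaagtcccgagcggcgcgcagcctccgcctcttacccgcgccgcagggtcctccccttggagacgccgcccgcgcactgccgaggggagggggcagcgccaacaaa
Col4a2: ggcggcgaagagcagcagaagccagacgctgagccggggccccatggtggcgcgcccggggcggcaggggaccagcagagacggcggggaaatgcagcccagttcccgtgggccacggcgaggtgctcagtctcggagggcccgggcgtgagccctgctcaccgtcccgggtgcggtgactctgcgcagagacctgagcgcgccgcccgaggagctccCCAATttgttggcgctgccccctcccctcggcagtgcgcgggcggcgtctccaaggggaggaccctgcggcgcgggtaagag

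Col4a1 and Col4a2, which encode the common chains of basement membrane collagen, are transcribed away from each other, and their windows share 78 bases at chr8:11312777-11312854. The windows of Col4a2 and Fmod each held 1 CCAAT, and that of Col4a1 held 1 ATTGG. Col3a1 held 1 TATAAA, Col17a1 held 2 TATAAA and 1 ATTGG, and Bgn held none of these words. Windows were found for 40 of the 52 members, and 31 of these started within 100 bases of the gene start in the count tables. CCAAT was present on either strand in 11 of those 31 windows (35.5%), against 37.4% of 32851 windows of all genes. TATAAA was present in 5 of 31 (16.1%), against 13.6% of all windows. A matching word is a description of the sequence and no evidence of binding. Col26a1, Col2a1, Dcn, Col12a1, Col22a1, Lum, Col5a2, Col14a1, Col1a1, Col4a3, Fn1 and Col9a3 had no entry.

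Matrix transcripts made up very different shares of the libraries. The 52 genes together took 0.012% and 0.025% of counts in fm_pos, against 1.022% and 0.793% in fm_neg. With floxed Gata3 they took 0.018%, 0.028% and 0.043% in fm_pos_Gata3flox, against 0.049%, 0.134% and 0.136% in fm_neg_Gata3flox. They took 0.467% and 0.34% in Gata3KO_tamoxifen, against 0.448% and 0.127% in WT_tamoxifen. The fm_neg libraries were the highest of all 14 and the fm_pos libraries were at the low end, with fm_pos_Gata3flox overlapping them. Within each of the fate-map comparisons by reporter the fractions did not overlap, while the tamoxifen groups did. In bulk RNA, fewer cells of a matrix-producing type and less matrix RNA per cell cannot be told apart.

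**Figure D1:**
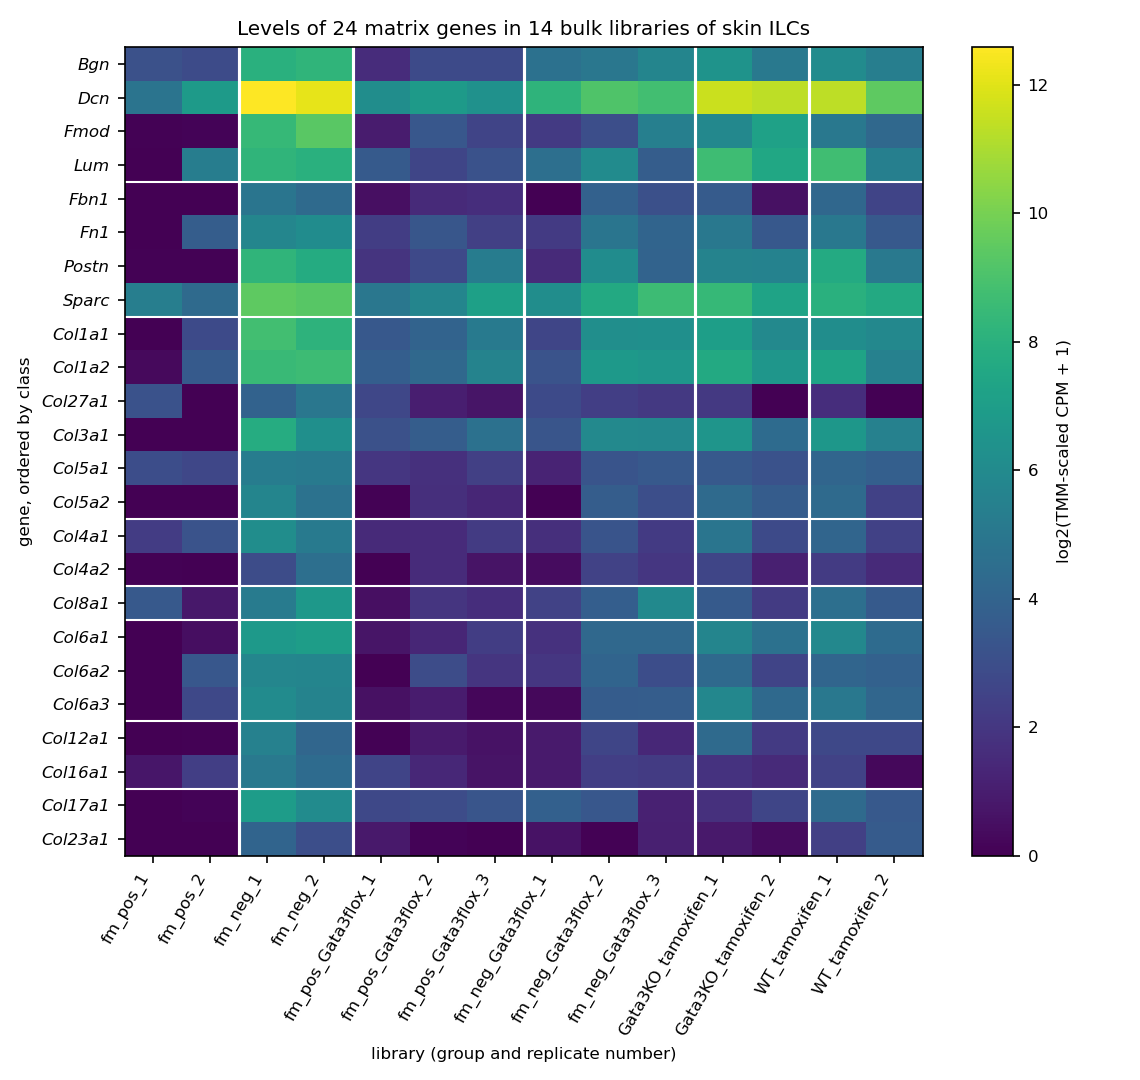
Heat map of log2(TMM-scaled CPM + 1) for 24 members (down the page, ordered by class) in the 14 bulk libraries (across, by group); brighter cells are higher. Dcn, in the brightest row, reaches 6162 and 4426 CPM in fm_neg, against 27.4 and 115 CPM in fm_pos.

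In RPKM, here CPM per kilobase of the exon length listed for the gene, the make-up of the matrix was dominated by a few small proteins. Decorin (Dcn) had the highest RPKM of all members in 11 of 14 libraries, and Sparc had it in fm_pos replicate 1, fm_pos_Gata3flox replicate 3 and fm_neg_Gata3flox replicate 3. In fm_neg, Dcn stood at 1055 and 758 RPKM, Sparc at 184 and 170 RPKM, Fmod at 105 and 198 RPKM and Lum at 124 and 103 RPKM. The most abundant collagen chains there were far lower, with Col1a1 at 66.9 and 42.8 RPKM and Col1a2 at 29.8 and 31.3 RPKM. Collagens gave 7.99% to 34.5% of member counts across the libraries, so non-collagen members held most of the counts in every library. The 2 chains of type I collagen had a Col1a1 to Col1a2 RPKM ratio of 0.237 to 2.39 over the 14 libraries. The exon lengths used were 6563 bases for Col1a1 and 12426 bases for Col1a2. Such lengths need not match the transcript expressed, so RPKM ratios between genes are approximate. For the type IV pair, Col4a1 over Col4a2 was 51.9 in fm_pos replicate 1 and 0.887 to 9.52 elsewhere, apart from fm_pos replicate 2 and fm_pos_Gata3flox replicate 1, where Col4a2 had 0 counts and Col4a1 had 326 and 42 counts.

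**Figure D2:**
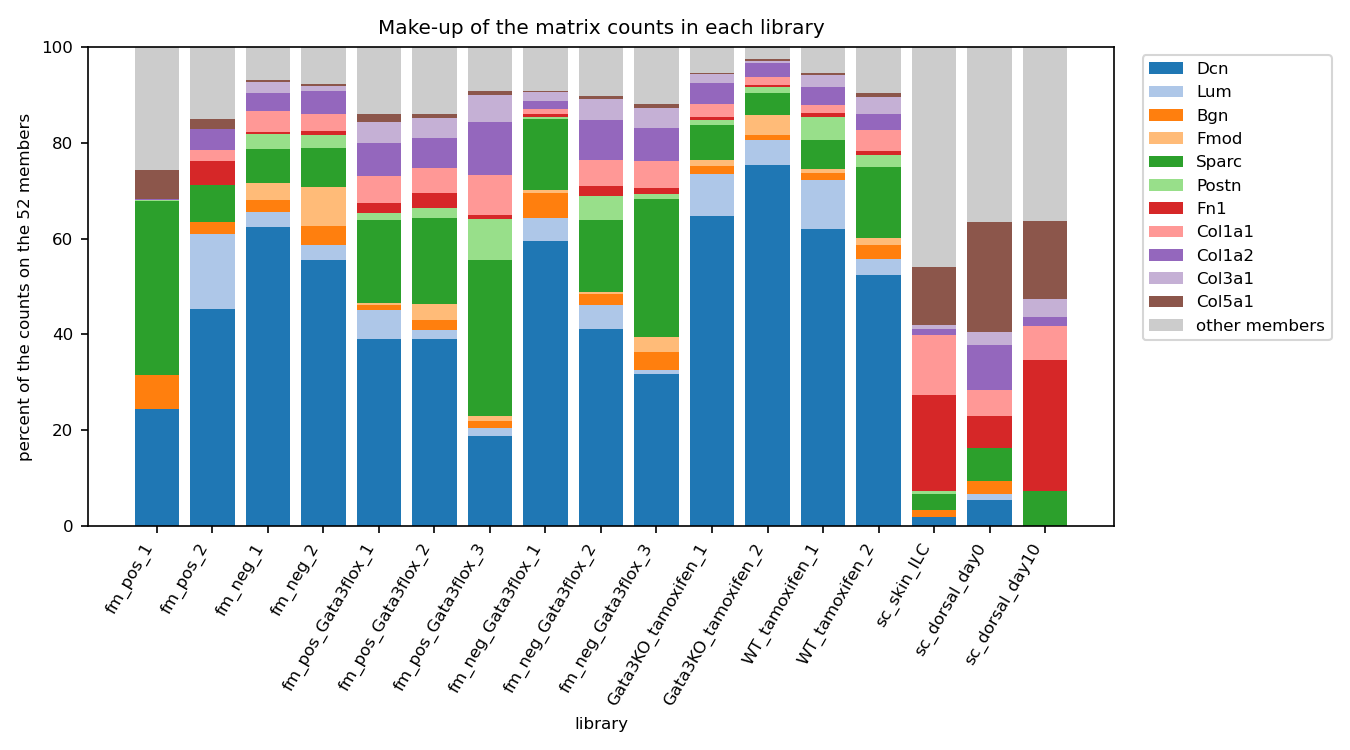
Stacked bars give the percent of all member counts held by 11 members and by the others together, in each of the 14 bulk and 3 single-cell libraries. Dcn holds 62.5% and 55.6% in fm_neg, against 24.5% and 45.4% in fm_pos, and 64.7% and 75.4% in Gata3KO_tamoxifen, against 62.1% and 52.5% in WT_tamoxifen.

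Small leucine-rich proteoglycans were lower in reporter-positive than in reporter-negative cells of intact mice: 3 of 4 fell, and the 4 had non-overlapping groups. Of all 17456 genes tested, 2.74% were called at an edgeR adjusted p under 0.05 (2.11% as lower and 0.624% as higher), and 18.8% had non-overlapping groups in the lower direction. Dcn (chr10:97479609-97518143), which binds type I collagen and limits fibril width, had 27.4 and 115 CPM in fm_pos, against 6162 and 4426 CPM in fm_neg. The fm_neg libraries were far above both fm_pos libraries. Its log2 fold change was -6.22 ± 0.68 (SE, adjusted p = 0.0024). Biglycan (Bgn), a close relative of decorin, had 7.79 and 6.39 CPM in fm_pos, against 250 and 303 CPM in fm_neg, with no overlap. Its log2 fold change was -5.28 ± 0.58 (adjusted p = 0.00246). Fibromodulin (Fmod), which takes part in collagen crosslinking, was almost absent from fm_pos, with 0.0649 and 0.0752 CPM, against 346 and 656 CPM in fm_neg. The log2 fold change was -12.70 ± 1.88 (adjusted p = 0.0101). Lumican (Lum), which keeps fibrils evenly spaced, had 0 and 39.1 CPM in fm_pos, against 303 and 251 CPM in fm_neg. The fm_pos libraries were unlike each other, and the log2 fold change of -3.82 ± 1.68 did not pass (adjusted p = 0.246).

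The matrix glycoproteins were lower too, 2 of 4 by the test and all 4 without overlap. Over all genes these shares were 2.11% and 18.8%. Sparc (chr11:55394500-55423183), a calcium-binding protein that helps procollagen assemble, had 40.7 and 19.6 CPM in fm_pos, against 698 and 645 CPM in fm_neg. Both fm_neg libraries were above both fm_pos libraries. Its log2 fold change was -4.48 ± 0.91 (adjusted p = 0.0332). Periostin (Postn, chr3:54361109-54391037), which anchors collagen crosslinking enzymes, had 0.0649 and 0.0501 CPM in fm_pos, against 301 and 216 CPM in fm_neg. That is near the detection limit in both fm_pos libraries, and the log2 fold change was -12.04 ± 2.30 (adjusted p = 0.0284). Fibronectin (Fn1), a cell-adhesion scaffold, had 0 and 12.3 CPM in fm_pos, against 53.1 and 68.6 CPM in fm_neg, with a log2 fold change of -3.30 ± 1.71 (adjusted p = 0.307). Fibrillin-1 (Fbn1), the core of elastic microfibrils, had 0 counts in fm_pos and 922 counts in fm_neg, at least 593.4-fold lower against a floor of 3 counts over the group (adjusted p = 0.0745). A share of 20.1% of its exon bases overlaps another gene, Gm9913.

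Of the 11 fibrillar collagen genes, 10 were tested, 1 fell and 8 had non-overlapping groups, lower in fm_pos. Of all genes tested, 2.11% were called lower and 18.8% were lower without overlap. Col3a1 (chr1:45311538-45349706), the chain of type III collagen, had 1 count in the 2 fm_pos libraries together and 6039 counts in fm_neg. At 0 and 0.0251 CPM in fm_pos, against 223 and 75.8 CPM in fm_neg, the groups were far apart although the fm_neg pair itself was spread. The ratio of fm_neg over fm_pos was 11660 (95% counting interval 2092 to 460600), with adjusted p = 0.00324. Col1a1, a chain of type I collagen, had 0.0324 and 6.19 CPM in fm_pos, against 439 and 281 CPM in fm_neg (log2 fold change -6.83 ± 1.74, adjusted p = 0.0736). Its partner Col1a2 had 0.26 and 10.9 CPM in fm_pos, against 370 and 389 CPM in fm_neg (log2 fold change -6.08 ± 1.60, adjusted p = 0.0815). For both chains fm_pos replicate 2 was above replicate 1, and neither chain passed the threshold. Type V chains nucleate fibrils. Col5a1 had 6.75 and 5.47 CPM in fm_pos, against 37.4 and 33.9 CPM in fm_neg (log2 fold change -2.55 ± 0.87, adjusted p = 0.156). Col5a2 had 1 count in fm_pos, with a ratio of fm_neg over fm_pos of 2943 (527.4 to 116300, adjusted p = 0.086). Col27a1, a fibrillar chain known from cartilage, had 7.95 and 0 CPM in fm_pos, against 14.3 and 30.6 CPM in fm_neg, and did not pass (adjusted p = 0.511).

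Among collagens of sheets and beaded filaments, 1 gene fell, where 2.11% of all genes were called lower. Col6a1 (chr10:76708792-76726168), a chain of type VI collagen, had 0 and 0.376 CPM in fm_pos, against 107 and 130 CPM in fm_neg. Its groups were far apart and its log2 fold change was -9.19 ± 1.58 (adjusted p = 0.0187). The other type VI chains had a signal in fm_pos replicate 2 alone or mainly: Col6a2 stood at 0 and 9.53 CPM and Col6a3 at 0.0324 and 5.54 CPM, against 54.4 and 51.4 CPM for Col6a2 and 66.0 and 47.8 CPM for Col6a3 in fm_neg. Neither passed (adjusted p = 0.393 for Col6a2 and 0.249 for Col6a3). Col4a1 (chr8:11198423-11312826) had 3.80 and 8.17 CPM in fm_pos, against 70.5 and 34.4 CPM in fm_neg, with a log2 fold change of -3.13 ± 0.81 that did not pass (adjusted p = 0.0776). Its neighbour Col4a2 (chr8:11312805-11449287) had 2 counts in fm_pos and 484 in fm_neg, a ratio of fm_neg over fm_pos of 467.3 (128.7 to 3869, adjusted p = 0.12). Col8a1, a short-chain collagen of vessel walls, had 10.4 and 0.777 CPM in fm_pos, against 36.4 and 103 CPM in fm_neg (adjusted p = 0.215).

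Among fibril-associated and membrane collagens, 1 of 6 and 1 of 2 tested genes fell, where 2.11% of all genes were called lower. Col12a1 (chr9:79598991-79718831), which sits on the surface of fibrils, had 2 counts in fm_pos and 1249 counts in fm_neg, a ratio of fm_neg over fm_pos of 1206 (333.1 to 9968, adjusted p = 0.0302). Col17a1 (chr19:47646344-47692094), the membrane collagen of hemidesmosomes in basal keratinocytes, had 4 counts in fm_pos and 3718 in fm_neg. It stood at 0.0324 and 0.0752 CPM in fm_pos, against 125 and 66.0 CPM in fm_neg, with a log2 fold change of -10.62 ± 1.30 (adjusted p = 0.00351). Col23a1, also a membrane collagen, had 1 count in fm_pos, with a ratio of fm_neg over fm_pos of 863.1 (154.1 to 34170, adjusted p = 0.13). Col16a1, a fibril-associated chain, stood at 0.681 and 4.04 CPM in fm_pos, against 33.3 and 20.1 CPM in fm_neg (adjusted p = 0.186). The multiplexins Col15a1 and Col18a1, basement membrane collagens with long glycan chains, did not share this direction. Col18a1 had 2.53 and 0.0251 CPM in fm_pos, against 0.585 and 0 CPM in fm_neg (log2 fold change 2.08 ± 2.52, adjusted p = 0.741). Col15a1 had 1.07 and 0 CPM in fm_pos, against 0 and 0.764 CPM in fm_neg (log2 fold change 0.49 ± 2.83, adjusted p = 1). Col14a1, another fibril-associated chain, had 0 and 6.80 CPM in fm_pos, against 4.32 and 7.99 CPM in fm_neg, with overlapping groups.

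Counted over the family, 9 of 39 tested members fell in fm_pos (Dcn, Bgn, Fmod, Sparc, Postn, Col3a1, Col6a1, Col12a1 and Col17a1) and 0 rose. Of all genes tested, 2.11% were called lower and 0.624% higher. Groups did not overlap for 27 tested members, all lower in fm_pos, where 18.8% of all genes were lower without overlap. The median log2 fold change of the 39 was -6.08, against 0 over all genes tested, and 34 were negative and 4 positive. A filter on low counts had removed 13 members, and it passes a gene that is high in 1 group alone, so these counts describe the tested genes and not all 52. The 13 were Col4a5, Col4a6, Col6a4, Col6a5, Col6a6, Col9a2, Col13a1, Col19a1, Col22a1, Col24a1, Col25a1, Col26a1 and Col28a1, and Col6a5, Col6a6 and Col19a1 had 0 counts in every bulk library. Of the 9, Dcn, Bgn, Fmod, Col3a1, Col6a1 and Col17a1 passed whichever of the 10 libraries was left out. Col12a1 lost its call without fm_pos replicate 1, fm_neg replicate 1, fm_pos_Gata3flox replicate 3 or fm_neg_Gata3flox replicate 3 (adjusted p 0.0519 to 0.0705), and Postn without either fm_pos library or fm_neg_Gata3flox replicate 3 (0.0516 to 0.0845). Sparc lost it without either fm_pos library, fm_neg replicate 1, or replicate 2 of either floxed group (0.052 to 0.0889). It lost it too with the code L1 or L2 in the library names as a covariate. Every reporter-positive fate-map library carries L2, while L1 occurs among reporter-negative fate-map libraries alone. Code and reporter therefore cannot be fully told apart. DESeq2 called 22 members, and a fit of the 2 groups alone called 4, with Dcn (adjusted p = 0.131), Col3a1 (0.0526), Col6a1 (0.163), Col12a1 (0.174) and Sparc (0.0684) no longer called.

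**Figure D3:**
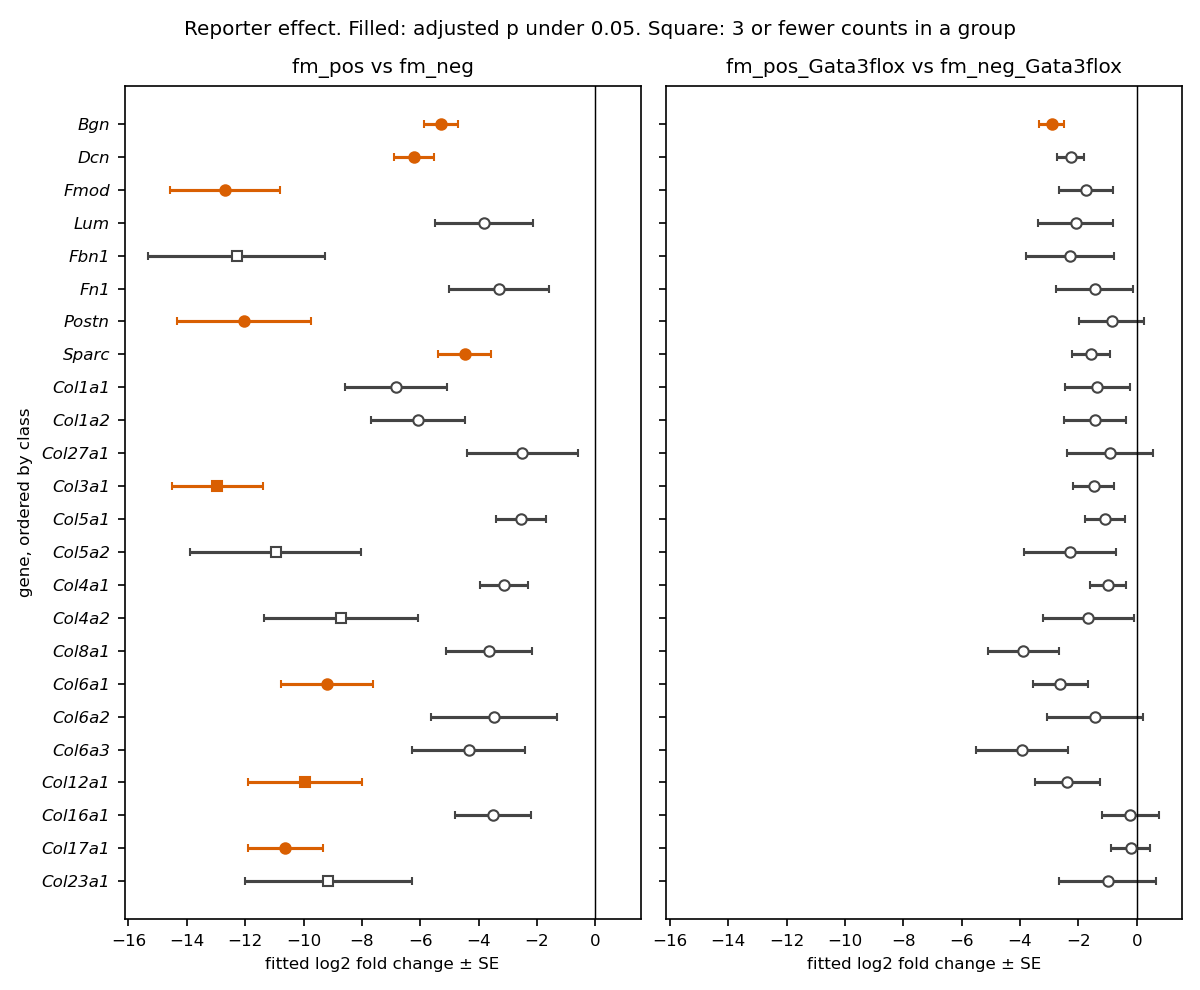
Log2 fold change with its SE (edgeR) of 24 members, for fm_pos against fm_neg (left) and fm_pos_Gata3flox against fm_neg_Gata3flox (right). Filled points passed an adjusted p of 0.05 (9 on the left, 1 on the right), and squares mark genes with 3 or fewer counts in a group, whose position depends on the prior count.

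The machinery around the matrix followed unevenly. Of all genes tested, 2.11% were called lower and 0.624% higher in fm_pos. Of 30 tested genes for collagen synthesis and processing, 5 were lower in fm_pos and 0 higher, with a median log2 fold change of -3.57. Bmp1, the protease that trims procollagen ends, had 0 counts in fm_pos and 917 in fm_neg, at least 590.2-fold lower (adjusted p = 0.0126). P4ha2, a prolyl hydroxylase subunit, had 0 and 0.201 CPM in fm_pos, against 44.9 and 60.4 CPM in fm_neg (log2 fold change -8.89 ± 1.44, adjusted p = 0.0151). Lox, which crosslinks collagen, had 2 counts in fm_pos and 1130 in fm_neg, a ratio of fm_neg over fm_pos of 1091 (301.3 to 9019, adjusted p = 0.0304). Of 30 tested elastic fibre and other matrix genes, 14 were lower and 0 higher, with a median of -10.68. Thbs1, a matricellular thrombospondin, had 2.95 and 1.81 CPM in fm_pos, against 214 and 129 CPM in fm_neg (log2 fold change -6.18 ± 0.56, adjusted p = 0.00107). Ogn, another leucine-rich proteoglycan, had 1 count in fm_pos and 4298 in fm_neg, a ratio of 8299 (1489 to 327900, adjusted p = 0.00223). For Mfap2, a microfibril protein, the counts were 1 in fm_pos and 2204 in fm_neg (ratio 4256, 763 to 168200, adjusted p = 0.00263). Of 14 tested matrix proteases and inhibitors 1 was lower, the stromelysin Mmp3, with 0 counts in fm_pos and 4932 in fm_neg, at least 3174-fold lower (adjusted p = 0.0283). Of 10 tested collagen receptors and uptake genes 0 passed, with 1 at an unadjusted p under 0.05, and their median was -1.67.

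Most markers of fibroblasts and keratinocytes were lower in fm_pos, as were most tested matrix genes. The summed CPM of 10 fibroblast markers was 28.38 and 48.33 in fm_pos, against 396.8 and 381.6 in fm_neg. All 10 were lower in fm_pos without overlap, as were 18.8% of all genes. Of the 10, 1 passed the test, Tcf4 (log2 fold change -1.88 ± 0.40, adjusted p = 0.0399), where 2.11% of all genes were called lower. Pdgfra, the receptor that defines dermal fibroblasts, was at 0 in both fm_pos libraries, against 27.0 and 22.6 CPM in fm_neg. Twist2, Lrp1, Cdh11 and Dpep1 were at 0 in fm_pos replicate 1 too, and Prrx1 was at 0.0973 CPM. The fibroblast sum of that library therefore rests on other genes of the list. The 10 keratinocyte markers summed to 187.8 and 176.9 CPM in fm_pos, against 4070 and 1998 CPM in fm_neg, and 4 of them passed as lower (Krt5, Krt14, Krt15 and Dsp). The keratin Krt14 alone stood at 69.2 and 23.5 CPM in fm_pos, against 2239 and 1160 CPM in fm_neg. Perp, from the same list, stood at 39.0 and 129 CPM in fm_pos, against 455 and 176 CPM in fm_neg. Endothelial, pericyte and smooth muscle, Schwann cell and melanocyte, mast cell, myeloid and ILC lists each had 0 members called, with 2, 2, 0, 3, 0 and 5 at an unadjusted p under 0.05. The part of the other cell types in the matrix difference was not tested. Summed CPM of ILC defining markers was 6375 and 8124 in fm_pos, against 5593 and 6141 in fm_neg.

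**Figure D4:**
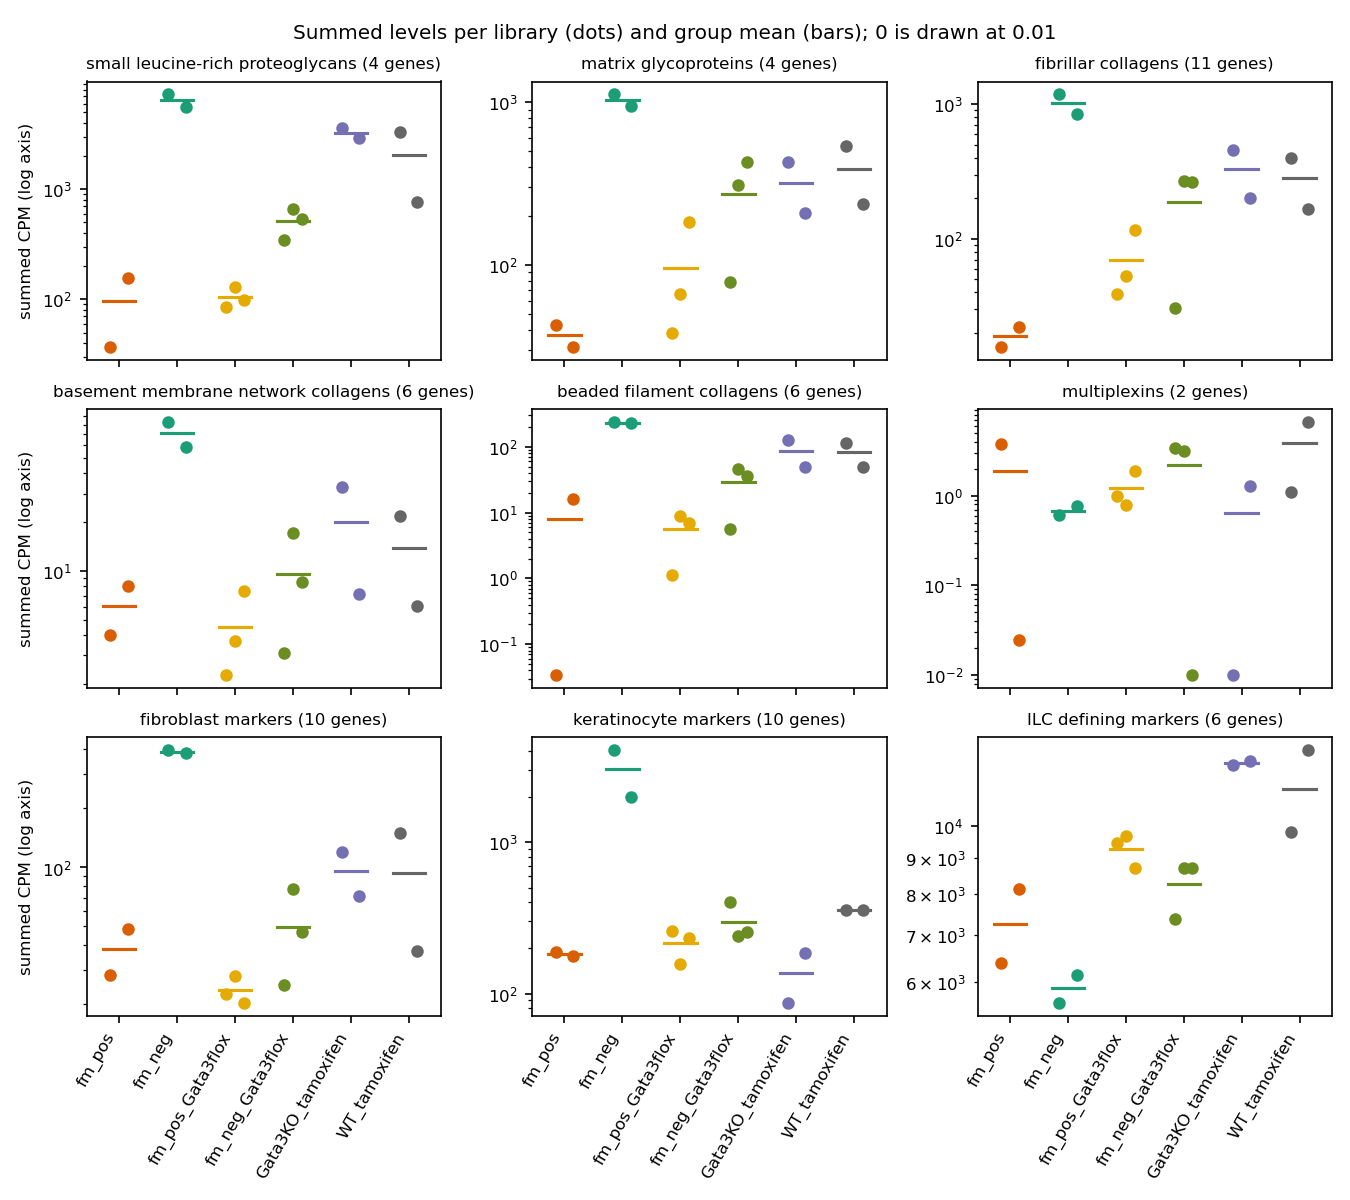
Summed CPM (log axes, not TMM-scaled) of 6 classes of members and 3 marker lists in each bulk library (dots), with the group mean (bars). The 4 proteoglycans sum to 36.9 and 157.1 CPM in fm_pos, against 7319 and 5614 CPM in fm_neg, and fibroblast and keratinocyte markers are highest in fm_neg too.

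With floxed Gata3, biglycan was the only member to pass the test between the reporter fractions. Of 39 tested members, 1 fell in fm_pos_Gata3flox relative to fm_neg_Gata3flox and 0 rose, where 0.361% of all genes were called (0.235% lower). The gene was Bgn, at 2.04, 6.08 and 6.16 CPM in fm_pos_Gata3flox, against 25.3, 30.7 and 51.5 CPM in fm_neg_Gata3flox, without overlap (log2 fold change -2.91 ± 0.43, adjusted p = 0.0283). That call was lost in 5 of 10 fits with 1 library left out (adjusted p 0.0597 to 0.12): those without fm_pos_Gata3flox replicate 2 or 3, or without any of the fm_neg_Gata3flox libraries. It was lost too with the code L1 or L2 in the library names, whose meaning the sources used here do not give, as a covariate (0.183). That code is not independent of the reporter, as given above. Dcn had 70.2, 114 and 82.3 CPM in fm_pos_Gata3flox, against 291, 554 and 434 CPM in fm_neg_Gata3flox. Its groups did not overlap either, with a log2 fold change of -2.26 ± 0.46 that did not pass (adjusted p = 0.0951). Lum, Col8a1 and Col12a1 were the other members without overlap, 5 in all and all lower, where 9.18% of all genes were lower without overlap. Col8a1 stood at 0.424, 2.81 and 2.13 CPM in fm_pos_Gata3flox, against 4.55, 12.6 and 62.8 CPM in fm_neg_Gata3flox (adjusted p = 0.378). Sparc overlapped, at 30.9, 52.4 and 143 CPM in fm_pos_Gata3flox, against 72.2, 202 and 396 CPM in fm_neg_Gata3flox (log2 fold change -1.57 ± 0.66, adjusted p = 0.599). The median of the 39 was -1.43, against 0 over all genes, and 36 were negative. Fibroblast markers summed to 22.72, 27.93 and 20.34 CPM in fm_pos_Gata3flox, against 25.01, 77.83 and 46.66 CPM in fm_neg_Gata3flox, and the 8 endothelial markers to 50.32, 39.88 and 76.28 CPM, against 8.372, 8.597 and 10.57 CPM. The part of these cells in the difference was not tested. None of the other matrix or marker lists had a member called, with 5 of 30 synthesis genes and 5 of 30 elastic fibre and other matrix genes at an unadjusted p under 0.05.

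Set against intact mice, the reporter-negative fraction held less matrix RNA and the reporter-positive fraction held more of a few genes. Relative to fm_neg, 3 of 39 tested members fell in fm_neg_Gata3flox and 0 rose, where 1.33% of all genes were called (0.739% lower and 0.596% higher). Dcn had the 291, 554 and 434 CPM given above, against 6162 and 4426 CPM in fm_neg (log2 fold change -3.64 ± 0.51, adjusted p = 0.0185). For Bgn the log2 fold change was -2.95 ± 0.45 (adjusted p = 0.0219). Col4a1 had 2.28, 8.54 and 3.48 CPM in fm_neg_Gata3flox, against 70.5 and 34.4 CPM in fm_neg (log2 fold change -3.46 ± 0.70, adjusted p = 0.0494). These libraries were well apart, but Dcn and Bgn each lost their call without any 1 of the fm_neg_Gata3flox libraries (adjusted p 0.0822 to 0.0916 for Dcn and 0.0654 to 0.125 for Bgn), and Col4a1 lost it in 8 of 10 fits, all but those without a fm_pos library (0.0512 to 0.181). Col4a1 also lost it with both groups alone (0.059) and with the library code (0.0566). Groups did not overlap for 25 members that were lower and 2 that were higher, where 17.6% of all genes were lower and 21.9% higher without overlap. The median was -2.40, against 0.07 over all genes. Of the other matrix lists, 4 of 30 tested elastic fibre and other matrix genes and 1 of 14 tested matrix proteases and inhibitors fell. Fibroblast markers summed to 25.01, 77.83 and 46.66 CPM in fm_neg_Gata3flox, against 396.8 and 381.6 CPM in fm_neg, and keratinocyte markers to 402.6, 239.8 and 253.7 CPM, against 4070 and 1998 CPM. Of these markers, 3 of 10 keratinocyte and 1 of 10 fibroblast genes fell, where 0.739% of all genes were called lower. The part of these cells in the difference was not tested. The fm_neg libraries served in this comparison and in that of fm_pos with fm_neg.

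Relative to fm_pos, 2 of 39 members rose in fm_pos_Gata3flox and 0 fell, where 1.52% of all genes were called (1.11% higher and 0.418% lower). Col3a1 had 7.72, 12.3 and 24.9 CPM in fm_pos_Gata3flox, or 1597 counts, against 1 count in fm_pos, a ratio of 1194 (214 to 47190, adjusted p = 0.0165). Col17a1 had 5.68, 6.55 and 8.82 CPM in fm_pos_Gata3flox, against 0.0324 and 0.0752 CPM in fm_pos (log2 fold change 6.86 ± 1.14, adjusted p = 0.0237), and this call was lost without either fm_pos library, fm_pos_Gata3flox replicate 1 or 2, or fm_neg_Gata3flox replicate 2 (0.0537 to 0.0651). All fm_pos_Gata3flox libraries were above both fm_pos libraries for these genes, at levels below both fm_neg libraries. Postn had 2.76, 5.86 and 37.5 CPM in fm_pos_Gata3flox, against 0.0649 and 0.0501 CPM in fm_pos, and did not pass (adjusted p = 0.0865). Fmod had 0.933, 9.64 and 4.93 CPM in fm_pos_Gata3flox, against 0.0649 and 0.0752 CPM in fm_pos (adjusted p = 0.0952). Fbn1 had 153 counts in fm_pos_Gata3flox and 0 in fm_pos, at least 38.13-fold higher. Dcn did not follow, at 70.2, 114 and 82.3 CPM in fm_pos_Gata3flox, against 27.4 and 115 CPM in fm_pos (log2 fold change 0.32 ± 0.50, adjusted p = 0.785). Fitted alone, the groups gave 0 calls (adjusted p = 0.134 for Col3a1 and 0.14 for Col17a1). Groups did not overlap for 12 members that were higher and 4 that were lower, where 21.2% of all genes were higher and 11.8% lower. The median was 3.35, against 0.18 over all genes, and 5.27 without fm_pos replicate 2. Of the other lists, 5 of 30 tested elastic fibre and other matrix genes rose (Ogn, Mfap2, Thbs1, Efemp1 and Tgfbi), as did the hydroxylase subunit P4ha2, 1 of 30 tested synthesis genes. Of 6 tested ILC defining markers, 1 fell and 0 rose, with 2 positive and 4 negative fitted changes. Their summed CPM was 9434, 9676 and 8705 in fm_pos_Gata3flox, against 6375 and 8124 in fm_pos. Fibroblast markers summed to 22.72, 27.93 and 20.34 CPM in fm_pos_Gata3flox, against 28.38 and 48.33 CPM in fm_pos. Pdgfra was at 0, 0.396 and 0 CPM in fm_pos_Gata3flox and at 0 in both fm_pos libraries, so these sums rest on other genes of the list. Keratinocyte markers summed to 258, 156.1 and 232.2 CPM, against 187.8 and 176.9 CPM. Endothelial markers summed to 50.32, 39.88 and 76.28 CPM in fm_pos_Gata3flox, against 12.53 and 6.767 CPM in fm_pos, and pericyte and smooth muscle markers to 10.05, 48.83 and 37.24 CPM, against 9.267 and 0.07382 CPM. The fitted changes were positive for 8 of 8 tested endothelial and 5 of 5 tested pericyte and smooth muscle markers, with 0 of either list called and 3 of each at an unadjusted p under 0.05. They were positive for 7 of 10 keratinocyte, 6 of 10 fibroblast and 4 of 5 mast cell markers too. The same held for 3 of 5 myeloid and 3 of 4 Schwann cell and melanocyte markers. In these lists 0 were called, with 3, 2, 1, 1 and 2 in that order at an unadjusted p under 0.05. The part of these cells in the matrix difference was not tested.

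The difference between the reporter effects was tested as an interaction. It passed for 4 of 39 members, all positive, where 1.01% of all genes were called (0.825% positive). The interaction was 11.48 ± 1.65 on the log2 scale for Col3a1 (adjusted p = 0.0143), 10.42 ± 1.39 for Col17a1 (0.0113), 10.95 ± 1.96 for Fmod (0.037) and 3.96 ± 0.73 for Dcn (0.0397). For Postn it was 11.17 ± 2.42 and did not pass (adjusted p = 0.0679). The sizes for Col3a1, Col17a1 and Fmod rest on fm_pos levels of a few counts, and a fitted fold change at such levels depends on the prior count. Col3a1 and Col17a1 passed without any 1 library and with the library code L1 or L2 as a covariate, where Dcn (adjusted p = 0.0744) and Fmod (0.057) did not. With the replicate number as a block, Col3a1 kept its call and Col17a1, Dcn and Fmod lost theirs. Dcn lost its call without fm_neg replicate 1 or any floxed library (0.0622 to 0.108), and Fmod without either fm_pos library, fm_pos_Gata3flox replicate 2 or 3, or fm_neg_Gata3flox replicate 1 or 2 (0.0646 to 0.0943). From the other lists, the interaction passed for P4ha2, Bmp1, Thbs1, Mfap2, Ogn, Efemp1, Tgfbi, Krt14 and Krt15, all positive. Library names of the intact and floxed sets carry different codes whose meaning the sources used here do not give, so genotype and that code cannot be told apart.

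After tamoxifen, no matrix gene passed the test between the genotypes. Of 29 tested members 0 were called by edgeR in Gata3KO_tamoxifen relative to WT_tamoxifen, as were 0% of all 13272 genes tested, with 2 members at an unadjusted p under 0.05 and 1 member called by DESeq2. Dcn had 3073 and 2581 CPM in Gata3KO_tamoxifen, against 2595 and 698 CPM in WT_tamoxifen (log2 fold change 0.78 ± 0.61). The groups overlapped, with WT_tamoxifen replicate 2 the lowest. Fmod had 57.3 and 146 CPM in Gata3KO_tamoxifen, against 31.6 and 18.1 CPM in WT_tamoxifen, without overlap (log2 fold change 2.03 ± 0.57, unadjusted p = 0.0154, adjusted p = 0.585). Col23a1 had 0.787 and 0.274 CPM in Gata3KO_tamoxifen, against 4.18 and 11.2 CPM in WT_tamoxifen (log2 fold change -3.83 ± 1.39, unadjusted p = 0.0393, adjusted p = 0.662). Col17a1 had 2.40 and 5.15 CPM in Gata3KO_tamoxifen, against 19.3 and 10.5 CPM in WT_tamoxifen (adjusted p = 0.763), and keratinocyte markers summed to 86.47 and 186.6 CPM, against 357.1 and 355.5 CPM. Sparc (346 and 155 CPM in Gata3KO_tamoxifen, 251 and 198 CPM in WT_tamoxifen) and Col1a1 (130 and 59.8 CPM, against 69.9 and 57.9 CPM) did not pass. Groups did not overlap for 1 member that was higher and 4 that were lower, where 16.8% of all genes were higher and 19.3% lower. The median was 0.22, against -0.03 over all genes, and it turned negative without Gata3KO_tamoxifen replicate 1 (-0.76) or WT_tamoxifen replicate 2 (-0.19). Gata3KO_tamoxifen replicate 1 carries the code L4 in its library name and the other tamoxifen libraries carry L1, so that library and its code cannot be told apart. Both WT_tamoxifen and Gata3KO_tamoxifen libraries lay between fm_pos and fm_neg in their share of matrix counts, but the sets were fitted separately and that order was not tested.

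Single cells held very few matrix transcripts. After filtering, 4103 skin cells, 553 day 0 cells and 443 day 10 cells remained, with medians of 2358, 1984 and 1811 counts per cell. Members gave 331 counts of 10240360 in skin, or 32.32 CPM (95% Poisson interval 28.93 to 36.0). In dorsal skin they gave 63.18 CPM at day 0 (49.61 to 79.32, 74 counts) and 63.75 CPM at day 10 (48.03 to 82.99, 55 counts). The ratio of day 10 over day 0 was 1.01 (0.699 to 1.45), so no change was detectable at this depth. With 1 library per day these intervals cover counting error only and no test was made. A member count was found in 238 skin cells (5.8%), 50 day 0 cells (9.04%) and 45 day 10 cells (10.2%), and 3, 1 and 0 cells held 3 or more members. Haemoglobin Hba-a1, which ILCs should lack, was found in 3.14% of skin cells, 3.25% of day 0 cells and 4.29% of day 10 cells. That was above the share of any single member, so shares of this size alone do not show expression by the cells. The source of the member counts was not tested.

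**Figure D5:**
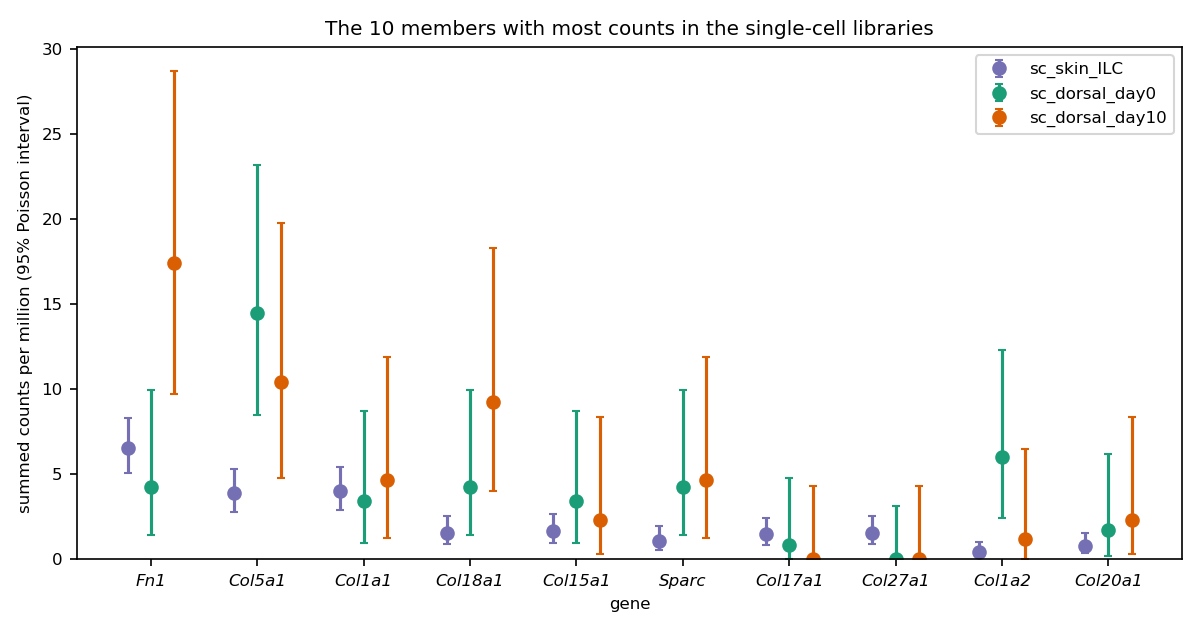
Summed CPM of the 10 members with most counts, in the 3 single-cell libraries (colours), with 95% Poisson intervals as bars. Fn1 is the highest member in skin with 67 counts. Its intervals at day 10 (9.73 to 28.7 CPM) and day 0 (1.39 to 9.96 CPM) overlap slightly, and the ratio of day 10 over day 0 was 4.07 (1.41 to 14.3). With 1 library per day, these intervals cover counting error only.

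The few counts fell mainly on Fn1 and collagens. Fn1 gave 67 skin counts in 43 cells (1.05%), of which 39 also held Ptprc, the gene for the pan-leukocyte protein CD45, found in 75.3% of all skin cells. Ptprc was found in 29 of 35 skin cells with Col1a1, 24 of 35 with Col5a1, 10 of 15 with Col15a1 and 8 of 12 with Col18a1. Col1a1 gave 41 counts, Col5a1 40, Col15a1 17, Col18a1 16, Col27a1 16, Col17a1 15 and Sparc 11 in skin. The proteoglycans were rarely found, with 6, 4 and 0 Dcn counts in skin, day 0 and day 10, 5, 2 and 0 Bgn counts, and 0, 1 and 0 Lum counts. At day 10 the 0 counts of Dcn allow up to 3.48 CPM by the floor of 3 counts, and 4.28 CPM by the upper end of the 95% Poisson interval. All 15 Col17a1 counts in skin came from 1 cell, which held 40 Krt14, 42 Krt5 and 0 Ptprc counts. The 16 Col27a1 counts came from 8 cells, all with Ptprc. Between days, Fn1 had 15 counts in 9 cells at day 10 and 5 counts in 3 cells at day 0. The ratio was 4.07 (1.41 to 14.3), and 6.79 (1.45 to 63.7) without the cell with most Fn1 counts in each library. Col5a1 had 9 counts at day 10 and 17 at day 0 (ratio 0.719, 0.282 to 1.7), and Col1a1 had 4 at each day (1.36, 0.253 to 7.29). Partner chains had unequal counts: Col5a1 had 40, 17 and 9 counts in skin, day 0 and day 10, and Col5a2 had 2, 1 and 1. Col4a1 had 7, 0 and 0 counts, and Col4a2 had 0 in all of these libraries. At day 0, 1 cell with 1278 counts in all held 12 member counts over 8 members and 0 Ptprc counts. It also held 10 counts of ILC defining markers and 1 of fibroblast markers. In skin, 1 cell held 3 Bgn and 2 Dcn counts, with 0 Ptprc, 6 Il7r and 6 Gata3 counts. Its ILC defining markers had 30 counts and its fibroblast markers 0. The 10 fibroblast markers summed to 27.25 CPM in skin, 36.71 CPM at day 0 and 44.05 CPM at day 10. Tcf4 gave 244, 38 and 33 of their 279, 43 and 38 counts, while Pdgfra, Prrx1 and Meox2 had 0 counts in the 3 libraries. The part of fibroblasts in the matrix counts was not tested. Cell names shared between libraries numbered 4 for skin and day 0 and 0 for the other pairs.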

How the data were processed

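Bulk RNA-seq (14 libraries, 6 groups) and single-cell RNA-seq (3 libraries) of mouse skin ILCs were used. Per the submitters' processing notes, HISAT2 2.1.0, featureCounts, Subread and the mm10 build were used, and further settings were not given in the sources used here. The authors deposited unnormalised read counts, per gene for bulk libraries and per gene and cell for single cells. The single-cell platform was not given in the sources used here.

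Members were matched by symbol, and classes and lists were written by hand. The members and lists were chosen with earlier results of these data known. In R 4.3.3, edgeR 4.0.16 (filterByExpr, TMM, quasi-likelihood test) was fitted to the 10 fate-map libraries together (17456 genes tested) and to the 4 tamoxifen libraries (13272). A gene was called at a Benjamini-Hochberg adjusted p under 0.05 over all genes tested, and only called genes are said to rise or fall. Errors of log2 fold changes are SEs of the fit, whose common biological coefficient of variation was 0.879 (fate-map) and 0.808 (tamoxifen). The scripts were tested on simulated counts with known changes. CPM used TMM-scaled library sizes, except summed CPM of lists. RPKM divided CPM by the exon length of the gene in the count tables and is used to compare genes approximately. Folds against 0 counts are bounds against 3 counts over the group, and ratios against 1 to 3 counts carry 95% intervals. Intervals and bounds cover counting error only.

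Named members were the 8 non-collagen genes, collagens with a mean of at least 10 CPM in any bulk group and any called member. From each matrix list the 3 members with the smallest p were considered, with defining genes of marker lists. Others named here, among them Col14a1 and the multiplexins, were chosen after their values were seen. Same-numbered libraries did not deviate together (correlations -0.00511 to 0.0975), and the labels give no shared animal, so the numbers were not taken as pairs.

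Cells were kept with at least 200 genes and at most 10% mitochondrial counts, and doublets predicted by scanpy 1.11.5 were left out (3 in skin, 11 at day 0 and 11 at day 10). The skin library listed 37 mitochondrial genes and the dorsal libraries listed 0, so that limit acted on skin alone. Promoter sequences came from RefSeq tables on GRCm38.p6. Alternatives were DESeq2 1.42.0, no filter on low counts, the groups of a comparison alone, a replicate block, a library code as covariate, and leaving out each library in turn. The gene that drives the fate-map reporter is not reported here. No column of per-sample values was left out.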

Additional observations from a re-analysis of the deposited data

Results flagged for a closer look

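The effect of the reporter on 4 members differed between mice with floxed and intact Gata3 by the interaction term of the edgeR fit. The interaction on the log2 scale was 11.48 for Col3a1, 10.42 for Col17a1, 10.95 for Fmod and 3.96 for Dcn. In each case the gene was lower in fm_pos than in fm_neg by more than it was lower in fm_pos_Gata3flox than in fm_neg_Gata3flox. Dcn lost this call in 7 and Fmod in 6 of 10 fits without 1 library, and both lost it with the library code L1 or L2 as a covariate (adjusted p = 0.0744 for Dcn and 0.057 for Fmod). With the replicate number as a block, Dcn, Fmod and Col17a1 lost it.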

How the results depend on the processing

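No called result changed direction under any alternative run. The number of members called was 9 for fm_pos against fm_neg, and it was 22 by DESeq2, 20 where genes with low counts were kept (no filter) and 4 with the libraries of both groups alone. For fm_pos_Gata3flox against fm_neg_Gata3flox the 1 call became 3 with DESeq2, 7 with no filter, 2 with both groups alone and 0 with the library code L1 or L2 as covariate, and 0 to 2 without 1 library (2 without either fm_pos library, 0 without fm_pos_Gata3flox replicate 2 or 3 or any fm_neg_Gata3flox library). For fm_pos_Gata3flox against fm_pos the 2 calls became 10 with DESeq2, 10 with no filter and 0 with both groups alone, and 1 to 3 without 1 library (1 without fm_pos replicate 1, fm_pos_Gata3flox replicate 1 or 2, or fm_neg_Gata3flox replicate 2). For fm_neg_Gata3flox against fm_neg the 3 calls became 10 with DESeq2, 12 with no filter, 2 with both groups alone and 2 with the library code, and 0 to 6 without 1 library (6 without either fm_pos library, 0 without any fm_neg_Gata3flox library). For the interaction the 4 calls became 13 with DESeq2, 13 with no filter and 2 with the library code, and 2 to 7 without 1 library (7 without fm_pos replicate 2, 2 without fm_pos_Gata3flox replicate 2 or 3 or fm_neg_Gata3flox replicate 1 or 2). After tamoxifen DESeq2 called 1 member, and no filter and leaving out 1 library called 0.

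Over all genes, for fm_pos against fm_neg 478 calls became 2613 with DESeq2, 1324 with no filter, 29 with both groups alone and 250 with the library code (241 to 877 without 1 library). For fm_pos_Gata3flox against fm_neg_Gata3flox 63 became 532, 321, 233 and 10 under the same 4 alternatives (2 to 121 without 1 library). For fm_pos_Gata3flox against fm_pos 266 became 2391, 974, 0 and 133 (66 to 489). For fm_neg_Gata3flox against fm_neg 233 became 2054, 893, 367 and 77 (5 to 573). For the interaction 176 became 1487 with DESeq2, 773 with no filter and 73 with the library code (54 to 504). After tamoxifen 0 became 236 with DESeq2 and 6 with no filter. Among fate-map libraries the code L1 was carried by reporter-negative ones alone, so this covariate and the reporter cannot be fully told apart. The cause of the changes in calls was not tested.

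With the replicate number as a block, members called were 9, 1, 1, 3, 1 and 0 in the order of these comparisons, and all genes called were 126, 31, 131, 83, 26 and 0. In this replicate block Col12a1 lost its call for fm_pos against fm_neg (adjusted p = 0.0734), Col4a1 for fm_neg_Gata3flox against fm_neg (0.0906) and Col17a1 for fm_pos_Gata3flox against fm_pos (0.0506), as did the interactions of Dcn (0.107), Col17a1 (0.0852) and Fmod (0.0513).

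The median log2 fold change of tested members moved to 5.27 for fm_pos_Gata3flox against fm_pos and to 6.63 for the interaction without fm_pos replicate 2, and changed sign after tamoxifen, to -0.76 without Gata3KO_tamoxifen replicate 1 and to -0.19 without WT_tamoxifen replicate 2. The ratio of members between days was 0.977 to 1.1 under its alternatives.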
